A study of Mus musculus with 9 samples.

Results

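Genes of the type I interferon response were examined in sorted mouse CD4 T cells, naive or from the lung in allergic airway inflammation. The set was defined as 33 named interferon-induced genes and their factors, each read from the brightest probe set that names no other gene. Of the 33, 30 were measured in this way, out of 19937 genes measured in all. Gbp2 and Isg15 lie on probe sets that also name another gene, and these 2 and Ifi44 are not analysed here. RNA was measured on 9 Affymetrix arrays, 3 for each of 3 groups, and values are log2 intensities. Naive CD4 T cells (sorted as CD4+ CD44-, with a further surface marker) were taken at day 29 from spleens of mice given sham treatment. Acute Th2 cells (CD4+ CD69+ ST2+) were lung cells of day 29, from mice sensitised with ovalbumin in aluminium hydroxide and exposed to its aerosol on 3 days in a row. Chronic Th2 cells, sorted in the same way, were taken from lungs at day 104. Their mice were sensitised as those of the acute group were, and were exposed to the aerosol 2 times a week for 12 weeks. The labels give activation with antibodies to CD3 and CD28 for 8 h after the sort for all cells, naive ones included. By the labels, no level here is that of a resting cell, but most early genes of activation were low on naive 1, as described below. The sources used here do not give strain, sex or age of the mice. Replicates are labelled biological, but nothing says whether they came from separate animals, so that p-values cover only the spread among these samples, which may be technical. Lung tissue went through a 30 min enzyme digestion at 37 °C (DNaseI, collagenase D), a step the labels give for no spleen sample. Spleen or lung, with that digestion, cannot be told apart from naive or Th2 state, nor day from stage of inflammation. Both comparisons with naive cells share the 3 naive arrays.

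Type I interferons are cytokines made mainly after a cell senses foreign nucleic acid. They bind the receptor IFNAR, whose kinases JAK1 and TYK2 phosphorylate STAT proteins, STAT2 among them. STAT2 and IRF9 are parts of the complex ISGF3, which binds the interferon-stimulated response element (ISRE) in the promoters of target genes. Many of the targets limit viruses, such as the IFIT proteins that bind foreign RNA, the OAS enzymes that activate RNase L and the Mx GTPases. Others encode the sensors and factors that start the response, so that it feeds itself. Type II interferon (interferon gamma), made by activated T cells, acts at another element, GAS, and induces guanylate-binding proteins.

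Promoter sequences are shown for 6 members, since these elements are what is known to tie the genes together. Windows from 250 bases before to 50 bases after the start of a gene (RefSeq, GRCm38.p6) were matched for 22 of the 30 measured members. The core of the ISRE was searched as GAAA, any 2 bases and GAAA again, and the GAS element as TTCNNNGAA, on both strands. An ISRE match was present in 12 of the 22 members (54.5%), in 607 of 15613 measured genes with a window (3.89%) and in 1131 of all 32851 windows (3.44%). A GAS match was present in 7 of the 22 members (31.8%), 8.99% of the measured genes and 8.3% of all windows. A match is a description of letters and not a measured binding site. The stretches below run 5′ to 3′ along the strand of the gene, and capitals mark the ISRE match or matches, or for Isg20 the GAS match. Gbp3 and Isg20 are shown because they were the members called different from naive cells, and the other 4 because they are the brightest other members with an ISRE match before the start. Gbp3, Oas1a and Bst2 hold 2 overlapping ISRE matches each. In Bst2 a GAS match overlaps the first ISRE match.
Gbp3 (chr3:142559979-142560034, + strand): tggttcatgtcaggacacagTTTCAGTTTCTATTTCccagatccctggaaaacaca
Isg20 (chr7:78913331-78913379, + strand): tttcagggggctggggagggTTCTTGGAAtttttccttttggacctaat
Trim30a (chr7:104465200-104465249, - strand): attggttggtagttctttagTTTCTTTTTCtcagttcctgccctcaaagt
Stat2 (chr10:128270256-128270305, + strand): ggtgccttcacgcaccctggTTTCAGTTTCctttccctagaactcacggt
Oas1a (chr5:120907526-120907565, - strand): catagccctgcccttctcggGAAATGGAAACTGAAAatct
Bst2 (chr8:71537567-71537622, - strand): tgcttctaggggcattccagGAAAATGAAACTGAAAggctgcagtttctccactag

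Members lay both above and below background, as did genes at large. The 95th percentile of the mean levels of 1015 olfactory receptor genes was 6.53, and was taken as background, since these genes belong to nasal neurons. Of the 30 members, 13 had means above it in all 3 groups, among them Irf9, Stat2, Ddx58, Zbp1, Gbp3, Samhd1, Trim30a and Bst2. Another 12 lay below it in every group. These were the IFIT genes Ifit1, Ifit2 and Ifit3, the GTPases Mx1 and Mx2, Oas3, Oasl2, Rsad2 (viperin, an antiviral enzyme), its neighbour Cmpk2, the RNA-sensing kinase gene Eif2ak2, the sensor gene Dhx58 and Rtp4, a chaperone gene. Irf7, Oas2, Usp18 and Xaf1 exceeded background in the naive mean only, and Ifih1 in the naive and acute Th2 means. By group, 18, 14 and 13 of the 30 members had means above background in naive, acute Th2 and chronic Th2 cells. Of all 19937 genes, 9726, 9653 and 9961 did so in the same groups. Differences of intensity near background understate those of RNA. On each array the T cell marker genes had a median between 9.79 and 10.91. Across 12 lists of markers of other cell types, the medians of a list on an array ran from 4.42 (NK cells) to 7.04 (CD8 T cells). Of their 72 genes, 13 had a mean above background in naive, 14 in acute Th2 and 14 in chronic Th2 cells. Among the lists is one of plasmacytoid dendritic cells, the main producers of type I interferon, whose medians were between 6.35 and 6.55. Siglech, a defining gene of those cells, was at or below 6.41 on every array. Cox6a2 of the same list had group means of 7.75, 7.77 and 7.71 in naive, acute and chronic Th2 cells, above background. Of the 5 measured genes of that list, 2 had a mean above background in naive, 2 in acute Th2 and 1 in chronic Th2 cells. Cd44, a marker of the sort, was higher in both Th2 groups by 1.93 and 1.89 (adjusted p = 0.000289 and 0.000334). Cd69, on which Th2 cells were sorted as positive, went the other way after activation, with differences of -0.51 and -1.09 that did not pass (adjusted p = 0.683 and 0.158) and were called lower without naive 1 (-1.02 and -1.61). Of the cell type markers, Cd5 and Lat of T cells and Pacsin1 of plasmacytoid dendritic cells were lower in both Th2 groups (Pacsin1 by -1.53 and -1.55 on the log2 scale), Ccr3, a chemokine receptor gene of eosinophils that Th2 cells also use, was higher (0.91 and 1.08), and Cd79a of B cells was lower in chronic Th2 cells. The part of other cell types in the results was not tested. Il1rl1, which encodes ST2, is not analysed here.

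**Figure D1:**
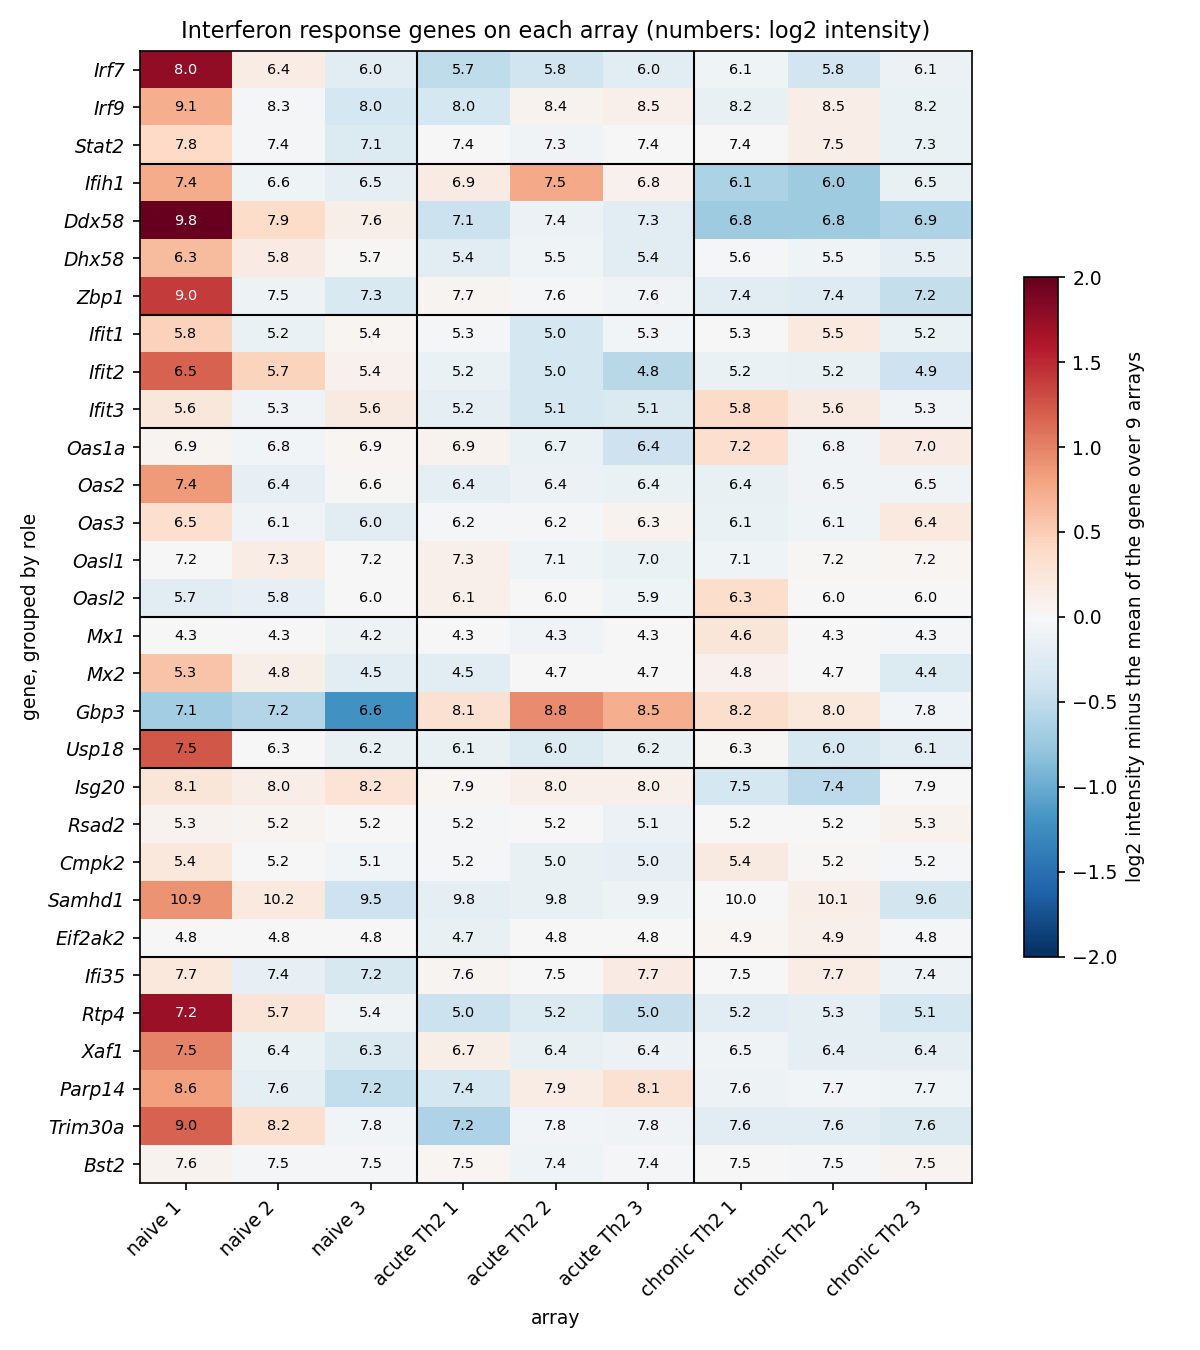
Log2 intensity of the 30 measured interferon response genes (rows, grouped by role) on the 9 arrays (columns). Cell numbers are log2 intensities and colour is the difference from the mean of the gene over 9 arrays. Naive 1 is the highest array for 20 of 30 genes, and Gbp3 is higher on all 6 Th2 arrays than on the naive ones.

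One naive array stood apart from every other array in these genes. The median level of the 30 members was 7.29 on naive 1, against 6.40 and 6.38 on naive 2 and 3, 6.51, 6.41 and 6.41 on acute Th2 1, 2 and 3, and 6.36, 6.24 and 6.43 on chronic Th2 1, 2 and 3. Naive 1 was the highest of the 9 arrays for 20 of 30 members (66.7%), against 17.4% of all genes. It was more than 1 log2 unit above the mean of the other naive arrays for 9 members (30%), against 3.79% of all genes. These 9 were Ddx58 (2.08), Irf7 (1.79), Rtp4 (1.64), Zbp1 (1.60), Usp18 (1.31), Xaf1 (1.19), Parp14 (1.17), Trim30a (1.05) and Samhd1 (1.02). The gap was not shared by all members. Gbp3, Ifit3, Oas1a, Oasl1, Oasl2, Mx1, Isg20, Bst2, Rsad2 and Eif2ak2 had gaps of 0.20 or less. Of these, Ifit3, Oasl2, Mx1, Rsad2 and Eif2ak2 are among the members near background, where a gap would be hard to see. The median gap was 0.34 among the 12 members with an ISRE match and 0.69 among the 10 without one. A list of 59 other measured interferon-induced genes had a median gap of 0.82, and naive 1 was the highest array for 42 of them (71.2%). The rise on naive 1 was not limited to interferon targets. The 8 T cell markers had a median gap of 0.85, with naive 1 highest for 6 of them (75%), and 9 receptors and kinases of interferon signalling a median gap of 0.64, with naive 1 highest for 7 (77.8%). Most early genes induced by the T cell receptor were low on the same array. Their median over 28 early genes was 8.47 on naive 1 and 10.59 and 10.88 on naive 2 and 3. Il2, the growth factor made after activation, had a level of 5.07 on naive 1, 11.33 on naive 2 and 11.27 on naive 3. Of the 28 genes, 4 went the other way and were highest on naive 1, the AP-1 factor genes Jun, Junb, Fos and Fosb, with gaps of 3.18, 1.92, 1.89 and 1.34. The labels give the same activation for naive 1 as for naive 2 and 3, and whether its cells responded alike was not tested. The part of these differences in the interferon genes was not tested either. Naive 1 enters both comparisons with naive cells, so that counts of members are given with and without it, and values without it stand beside those differences of members that it moves most.

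**Figure D2:**
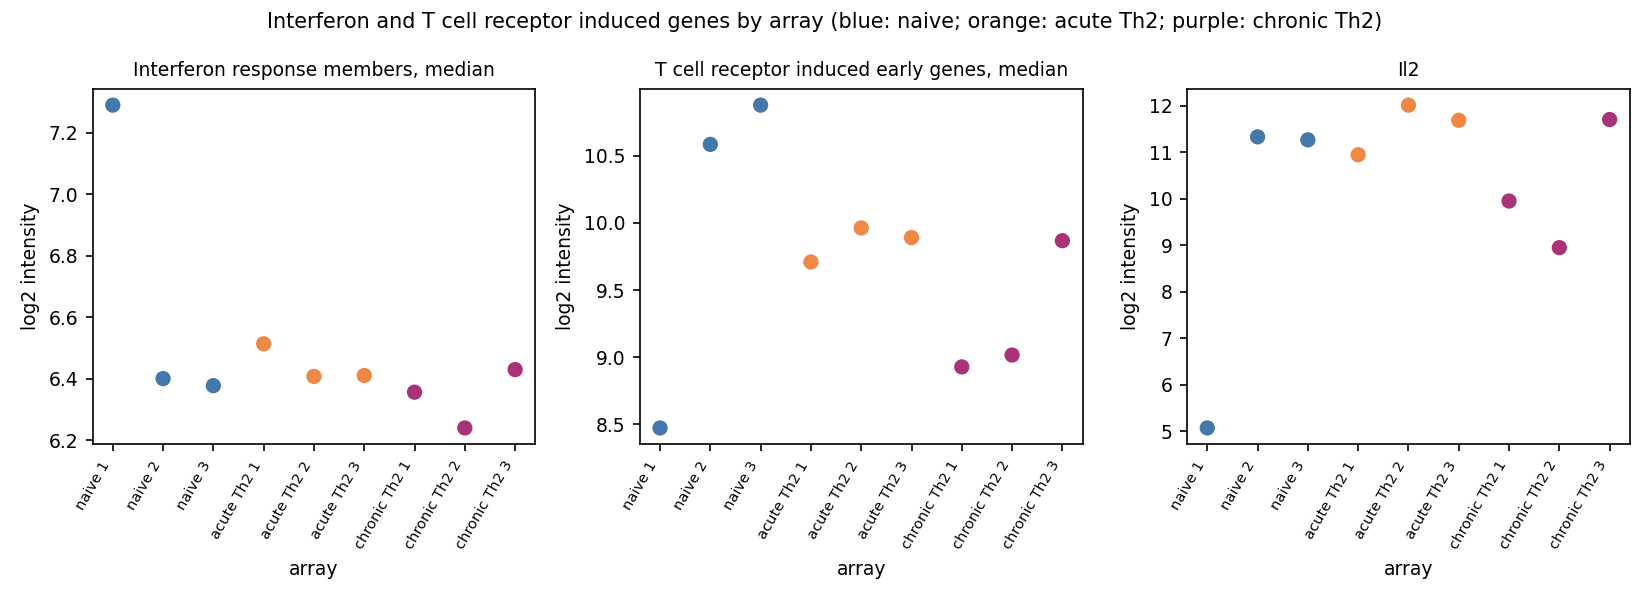
Median log2 intensity of the 30 interferon response genes, median of 28 T cell receptor induced early genes and level of Il2, by array. Each point is 1 array. Naive 1 is highest in the first panel (7.29) and lowest in both others (8.47 and 5.07).

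The comparison of acute Th2 with naive cells asks which interferon genes set lung T cells of acute inflammation apart. Gbp3, an interferon-induced guanylate-binding protein gene, was higher and was the only member called, at an adjusted p under 0.05. Thus 1 of 30 members was called, against 5.87% of all genes. That 1 was higher, as were 3.67% of all genes, and 0 members were called lower, against 2.2% of all genes. At an unadjusted p under 0.05 there were 7 members (Ddx58, Dhx58, Ifit2, Ifit3, Gbp3, Rtp4 and Trim30a), against 16.3% of all genes. All acute Th2 arrays lay above all naive arrays for 1 member (8.8% of all genes) and below them for 8 members (10.9% of all genes), Irf7, Ddx58, Dhx58, Ifit2, Ifit3, Isg20, Rsad2 and Rtp4. Differences were negative for 25 of 30 members, with a median of -0.17 against -0.03 over all genes. Without naive 1 the median was -0.06 and 19 of 30 were negative. Ddx58, Ifit2 and Rtp4 then passed as lower beside Gbp3 as higher, with 6.11% of all genes called lower and 6.05% higher.

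Chronic Th2 cells were compared with naive cells for the same question at the late stage. Gbp3 was again higher and Isg20, an exonuclease gene, was lower. Thus 2 of 30 members were called, against 7.88% of all genes, 1 of them higher (3.68% of all genes) and 1 lower (4.2% of all genes). At an unadjusted p under 0.05 there were 8 members (Ifih1, Ddx58, Dhx58, Ifit2, Gbp3, Isg20, Rtp4 and Trim30a), against 25.6% of all genes. All chronic Th2 arrays lay above all naive arrays for 1 member (15.6% of all genes) and below them for 6 members (12.3% of all genes), Ddx58, Dhx58, Ifit2, Isg20, Rtp4 and Trim30a. The median difference was -0.15, against 0.04 over all genes, and 21 of 30 members were negative. Without naive 1 the median was 0.03, 16 members were positive and 14 negative. Ddx58 and Isg20 were then lower and Gbp3 higher, with 11.4% of all genes called lower and 5.84% higher. In bulk samples, fewer cells that express a gene and less RNA per cell cannot be told apart.

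Chronic and acute Th2 cells were compared to ask whether the response changes as inflammation persists. 0 of 30 members were called by limma, and 6 of all genes (0.0301%). At an unadjusted p under 0.05 there were 4 members, Ifih1, Ifit3, Gbp3 and Isg20, against 14.9% of all genes. Chronic Th2 arrays lay above all acute Th2 arrays for 2 members (11.8% of all genes), Ifit3 and Rsad2, and below them for 4 (10.8% of all genes), Ifih1, Ddx58, Zbp1 and Isg20. The median difference was 0.04 for the members and 0.04 for all genes. Olfactory receptor genes had medians of 5.67 and 5.51 on chronic Th2 1 and 2 and between 4.94 and 5.21 on the other arrays, so that background differed too.

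**Figure D3:**
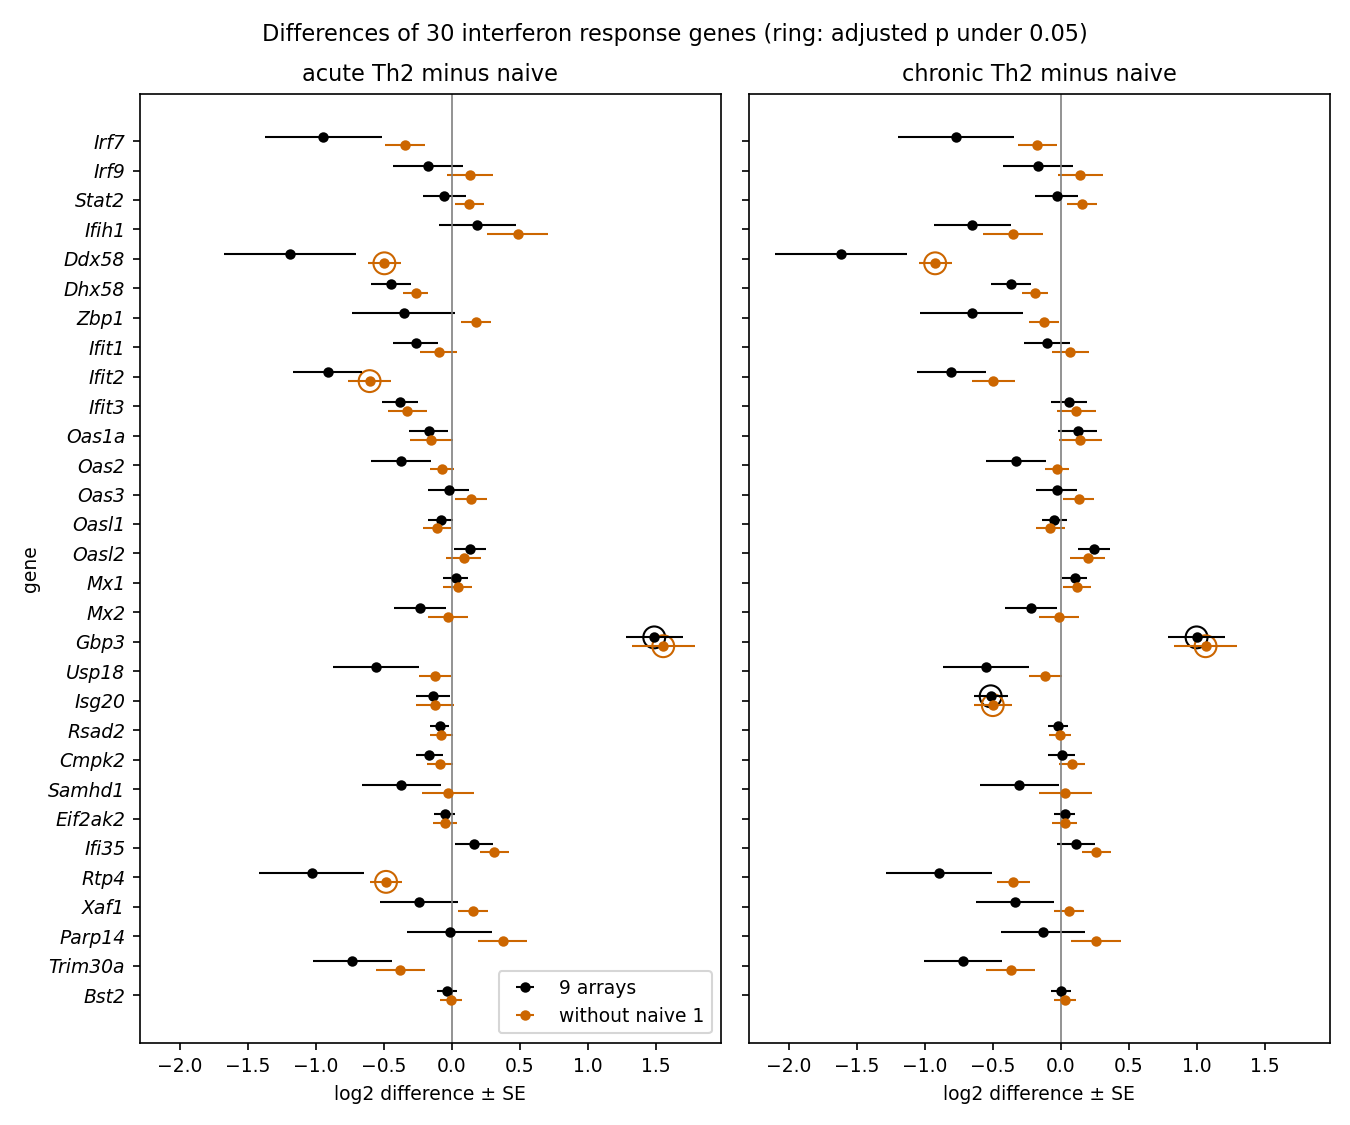
Log2 differences from naive cells of the 30 measured members, acute Th2 on the left and chronic Th2 on the right. Points are estimates and bars are SE, black for all 9 arrays and orange without naive 1, and rings mark genes called at an adjusted p under 0.05. Gbp3 is ringed in both panels and both fits, and Ddx58 in both panels only without naive 1.

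Among the transcription factors, Irf7, Irf9 and Stat2 did not pass in any comparison. Irf7, the factor that amplifies type I interferon production, had levels of 7.98, 6.36 and 6.01 in naive, 5.70, 5.82 and 6.0 in acute Th2 and 6.12, 5.83 and 6.09 in chronic Th2 replicates 1 to 3. Only naive 1 was well above background, and the lowest naive array lay barely above the highest acute Th2 array. The difference was -0.94 in acute Th2 (SE 0.43, adjusted p = 0.327) and -0.77 in chronic Th2 cells (adjusted p = 0.283), and became -0.35 and -0.17 without naive 1. Irf9, the DNA-binding subunit of ISGF3, had levels of 9.10, 8.33 and 8.01 in naive, 8.01, 8.43 and 8.46 in acute Th2 and 8.22, 8.50 and 8.23 in chronic Th2 cells. The groups overlapped, and the differences from naive cells of -0.18 and -0.16 turned to 0.13 and 0.14 without naive 1. Stat2, its partner, ranged from 7.13 to 7.80 over all arrays.

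Of the nucleic acid sensors, Ddx58, which encodes the RNA sensor RIG-I, had the largest difference. Its levels were 9.81, 7.86 and 7.61 in naive, 7.06, 7.38 and 7.28 in acute Th2 and 6.78, 6.78 and 6.87 in chronic Th2 cells. All 6 Th2 arrays lay below all naive arrays, and all chronic Th2 arrays below all acute Th2 ones. With 9 arrays the difference was -1.19 in acute Th2 (SE 0.48, adjusted p = 0.263) and -1.62 in chronic Th2 cells (SE 0.48, adjusted p = 0.0821), and neither passed. Without naive 1, Ddx58 was lower by smaller but called differences of -0.50 (adjusted p = 0.0278) and -0.92 (adjusted p = 0.00109). In chronic Th2 cells it was also called without naive 3 (-2.02, adjusted p = 0.0458).

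Ifih1, which encodes MDA5, the sensor of long double-stranded RNA, had levels of 7.44, 6.60 and 6.49 in naive, 6.86, 7.45 and 6.78 in acute Th2 and 6.06, 5.98 and 6.54 in chronic Th2 cells. Chronic Th2 arrays lay below all acute Th2 arrays, with a difference of -0.84 that did not pass (SE 0.28, adjusted p = 0.322). Zbp1, a sensor of Z-form nucleic acid linked to cell death, had levels of 9.04, 7.54 and 7.34 in naive, 7.69, 7.59 and 7.57 in acute Th2 and 7.41, 7.39 and 7.16 in chronic Th2 cells. Naive 1 was far above all others, and the differences from naive cells of -0.36 and -0.65 became 0.18 and -0.12 without it. Dhx58 (LGP2, a relative of RIG-I without its signalling part) was near background, between 5.41 and 6.26.

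In the IFIT family, Ifit2 had levels of 6.50, 5.75 and 5.40 in naive, 5.18, 4.96 and 4.76 in acute Th2 and 5.18, 5.16 and 4.89 in chronic Th2 cells. All Th2 arrays lay below all naive arrays, although every level was below background. The difference was -0.91 in acute Th2 (SE 0.25, adjusted p = 0.0829) and -0.80 in chronic Th2 cells (SE 0.25, adjusted p = 0.0927). In acute Th2 cells Ifit2 was called without naive 1 (-0.61, adjusted p = 0.0388) and without naive 3 (-1.15, adjusted p = 0.0303). In chronic Th2 cells it was called without naive 3 (-1.04, adjusted p = 0.0374) and not without naive 1 (-0.50, adjusted p = 0.0644). Ifit3 had levels of 5.63, 5.33 and 5.58 in naive, 5.23, 5.05 and 5.11 in acute Th2 and 5.79, 5.59 and 5.34 in chronic Th2 cells. Its chronic Th2 arrays lay above all acute Th2 ones by 0.44 on average (adjusted p = 0.322), with all levels under background and the olfactory receptor medians also highest on chronic Th2 1 and 2. Ifit1 lay between 4.98 and 5.80 on all arrays.

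None of the 5 OAS genes passed in any comparison. Oasl1, an OAS-like protein gene that in mice restrains Irf7 translation, had levels of 7.17, 7.33 and 7.17 in naive, 7.28, 7.09 and 7.05 in acute Th2 and 7.10, 7.21 and 7.22 in chronic Th2 cells. The groups overlapped, and the differences from naive cells were -0.08 and -0.05. Oas2 had levels of 7.38, 6.38 and 6.56 in naive cells, with naive 1 above all others, and its differences of -0.38 and -0.33 became -0.07 and -0.03 without that array. Oas3, Oas1a and Oasl2 ranged from 6.0 to 6.55, from 6.41 to 7.16 and from 5.74 to 6.32 over all arrays.

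**Figure D4:**
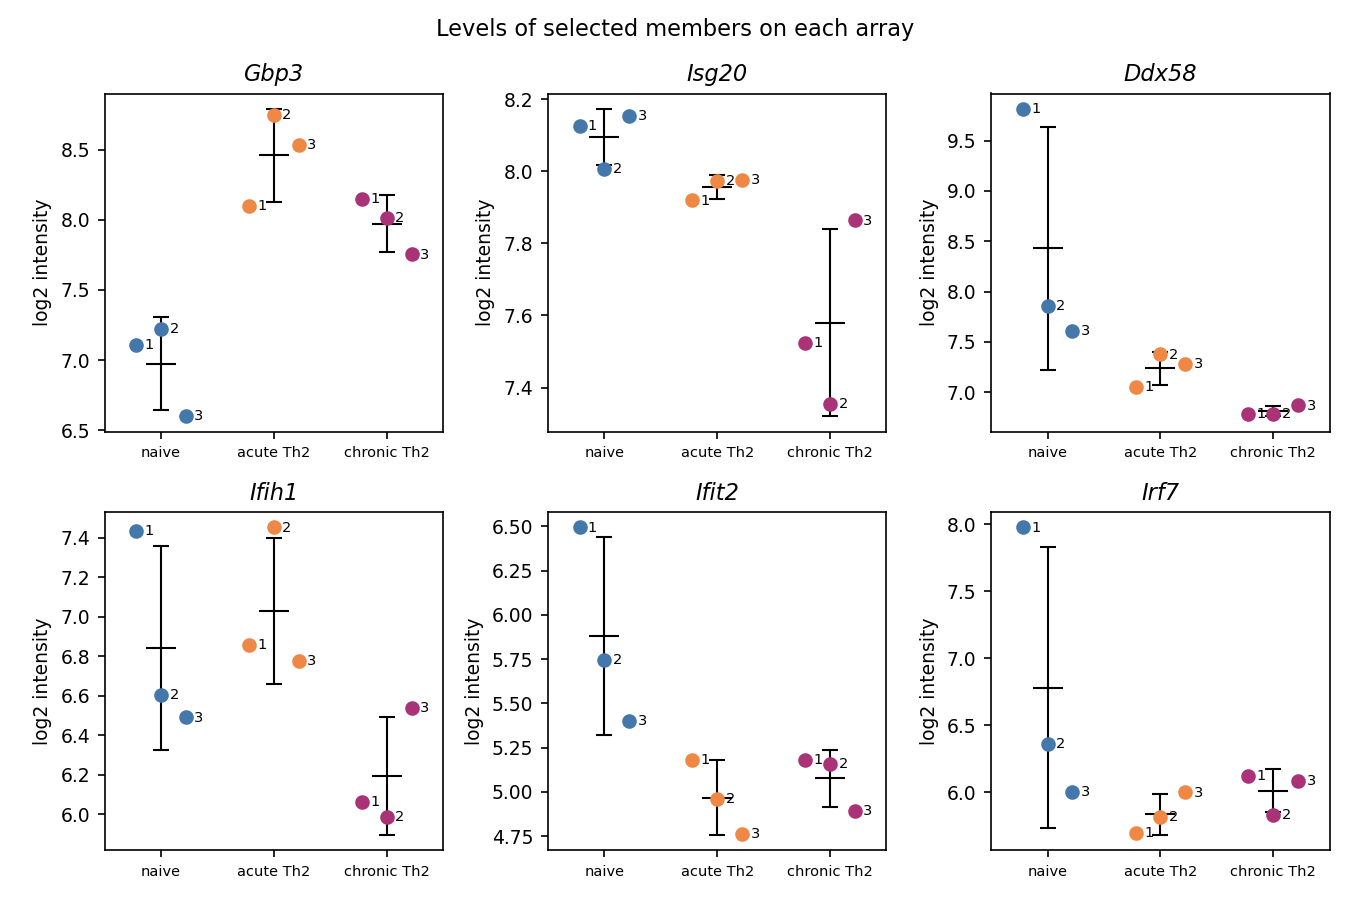
Log2 intensity of 6 members by group. Points are arrays with their replicate number, and horizontal lines and bars are the mean and SD of 3 arrays. All Th2 arrays lie above the naive arrays for Gbp3 and below them for Ddx58 and Ifit2, and naive 1 lies far above naive 2 and 3 for Ddx58 and Irf7.

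Among the GTPases, Gbp3 had levels of 7.11, 7.22 and 6.60 in naive, 8.10, 8.75 and 8.53 in acute Th2 and 8.15, 8.01 and 7.75 in chronic Th2 cells. Every Th2 array was above every naive array, and naive 1 lay within the naive range. Gbp3 rose by 1.49 in acute Th2 cells (SE 0.21, adjusted p = 0.00388), a 2.80-fold difference of intensity, and passed whichever 1 of the 9 arrays was left out. It rose by 1.00 in chronic Th2 cells (SE 0.21, adjusted p = 0.0248), but did not pass without naive 3 (adjusted p = 0.0548), acute Th2 3 (0.0505), chronic Th2 1 (0.108) or chronic Th2 2 (0.0880). The difference of -0.49 between chronic and acute Th2 cells did not pass (SE 0.21, adjusted p = 0.336). Guanylate-binding protein genes are close relatives, and probes may read more than one of them. Mx1 and Mx2, the antiviral dynamin-like GTPase genes, lay between 4.22 and 5.27 on all arrays, far under background.

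Among the enzymes of nucleotides and RNA, Isg20, an RNA exonuclease gene, had levels of 8.13, 8.01 and 8.15 in naive, 7.92, 7.97 and 7.98 in acute Th2 and 7.52, 7.35 and 7.86 in chronic Th2 cells. The 3 groups did not overlap, with naive arrays highest and chronic Th2 arrays lowest. Isg20 fell by 0.52 in chronic Th2 cells (SE 0.13, adjusted p = 0.0423). Of 9 fits that left out 1 array, it passed in 2, without naive 1 (adjusted p = 0.0420) or without chronic Th2 3, and the adjusted p rose to at most 0.152 in the others. The difference of -0.14 in acute Th2 cells did not pass (adjusted p = 0.714). Samhd1, which encodes an enzyme that degrades deoxynucleotides, was the brightest member. Its levels were 10.87, 10.16 and 9.55 in naive, 9.77, 9.83 and 9.87 in acute Th2 and 9.97, 10.10 and 9.60 in chronic Th2 cells. The groups overlapped, and the differences of -0.37 and -0.30 became -0.03 and 0.03 without naive 1. Eif2ak2, which encodes the kinase PKR, had the same value of 4.82 on 5 arrays.

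Usp18, the protease that removes ISG15 and blocks signalling at IFNAR, had levels of 7.55, 6.32 and 6.16 in naive, 6.15, 6.03 and 6.16 in acute Th2 and 6.32, 5.98 and 6.07 in chronic Th2 cells. Apart from naive 1, all arrays lay below background and overlapped. Rtp4 had levels of 7.20, 5.72 and 5.40 in naive, 5.04, 5.19 and 5.0 in acute Th2 and 5.24, 5.28 and 5.12 in chronic Th2 cells. All Th2 arrays lay below the naive arrays. The difference in acute Th2 cells was -1.03 (SE 0.39, adjusted p = 0.213), and without naive 1 it was smaller but called, at -0.48 (adjusted p = 0.0298). In chronic Th2 cells it was -0.89 with all arrays and -0.35 without naive 1, and passed in neither fit (adjusted p = 0.191 and 0.0825). Trim30a, which encodes a mouse regulator of inflammatory signalling, had levels of 9.03, 8.16 and 7.80 in naive, 7.23, 7.80 and 7.77 in acute Th2 and 7.64, 7.64 and 7.56 in chronic Th2 cells. Chronic Th2 arrays lay below all naive ones, while acute Th2 arrays reached the level of naive 3. Its differences of -0.73 and -0.72 did not pass (SE 0.29 each, adjusted p = 0.242 and 0.165), and were -0.38 and -0.37 without naive 1. Bst2, the membrane tether tetherin that holds back budding virus and also marks plasmacytoid dendritic cells, stayed between 7.39 and 7.55 on all arrays.

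Around the members, the only ligand gene called was that of interferon gamma. Of 15 measured interferon ligand genes, 1 was called in each comparison with naive cells (6.67%), against 5.87% and 7.88% of all genes. That 1 was Ifng. Its levels were 5.67, 6.09 and 6.29 in naive, 7.97, 8.21 and 7.81 in acute Th2 and 7.80, 7.91 and 7.70 in chronic Th2 cells. Ifng rose by 1.98 and 1.79, with every Th2 array above background and every naive array below it (adjusted p = 0.000194 and 0.000344). Ifnb1, the interferon beta gene, had group means of 5.61, 5.51 and 5.71 in naive, acute and chronic Th2 cells, below background. Ifna2, Ifna5 and Ifnl2 had means above background in all groups. In chronic Th2 against naive cells, 14 of the 15 differences were positive, with a median of 0.21 against 0.04 over all genes. At an unadjusted p under 0.05 there were 5, against 25.6% of all genes. Olfactory receptor medians were also highest on chronic Th2 1 and 2. Interferon alpha genes are near-identical copies, so that their probe sets cannot be assigned to single genes with certainty. None of 9 receptor and kinase genes passed in a comparison. At an unadjusted p under 0.05 there were 1 in acute Th2 against naive cells (16.3% of all genes) and 2 in chronic Th2 against naive cells (25.6% of all genes). Between chronic and acute Th2 cells there were 0 (14.9% of all genes). Ifnar1, a chain of the type I receptor, had group means of 8.35, 8.18 and 7.92 in naive, acute and chronic Th2 cells. Jak2, a kinase of the interferon gamma receptor, had the largest difference of the list in acute Th2 cells, 1.07 (SE 0.52, adjusted p = 0.376), which became 0.33 without naive 1. Without naive 1, Ifnar2, the other chain, was called higher in both Th2 groups (0.55 and 0.53), as was Ifngr1. Ifngr2 was then called lower in chronic Th2 cells. All genes in that fit gave 6.05% higher in acute Th2 cells, and 5.84% higher and 11.4% lower in chronic Th2 cells.

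Of 7 measured STAT and IRF genes outside the members, Stat3 and Irf8 were higher in both Th2 groups and Irf3 lower in chronic Th2 cells. These calls were 28.6% of the list in acute and 42.9% in chronic Th2 cells, against 5.87% and 7.88% of all genes. Without naive 1, Irf5 was also called higher in acute Th2 cells, where 6.05% of all genes were then called higher. Irf1, an early target of interferon gamma, differed by -0.43 and -0.53 and did not pass, and without naive 1, where its level was 9.91, the differences were -0.01 and -0.11. Stat3, which carries signals of the IL-6 and IL-10 families, rose by 1.07 and 1.26 (adjusted p = 0.00311 and 0.00119). Irf8, a factor induced by interferon gamma and by activation, rose by 1.39 and 1.36 (adjusted p = 0.0126 and 0.0131), but did not pass in acute Th2 cells without acute Th2 1 (0.0553) nor in chronic Th2 cells without chronic Th2 1 (0.0537). Irf3, which switches on interferon beta after sensing, fell by 0.51 in chronic Th2 cells (adjusted p = 0.0141) and did not pass without naive 2 (0.0524). Of 9 measured genes of the induction pathway, 1 was called lower in acute and 3 in chronic Th2 cells, against 2.2% and 4.2% of all genes. Ikbke, a kinase that phosphorylates IRF3 and IRF7, was lower in both groups. Its levels were 10.05, 9.58 and 9.24 in naive, 7.72, 8.41 and 8.26 in acute Th2 and 7.60, 7.55 and 7.82 in chronic Th2 cells. Ikbke fell by 1.50 and 1.97 with no overlap (adjusted p = 0.00601 and 0.00132). Trim25, the ubiquitin ligase that acts on RIG-I, fell by 1.02 in chronic Th2 cells (adjusted p = 0.00648), as did the adaptor gene Myd88 by 0.44 (adjusted p = 0.0217), which passed in 5 of 9 fits that left out 1 array.

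Of 10 negative regulators, 1 was called higher and 1 lower in acute Th2 cells, and 3 higher and 2 lower in chronic Th2 cells, where 5.87% and 7.88% of all genes were called in either direction. Without naive 1 there were 2 higher and 1 lower, with Socs3 added, and 3 higher and 3 lower, with Ptpn11 and Irf2bp2 in place of Adar. In that fit 6.05% of all genes were called higher and 6.11% lower in acute Th2 cells. In chronic Th2 cells the shares of all genes were 5.84% higher and 11.4% lower. Ptpn6, the phosphatase SHP-1 that dampens receptor signalling, fell by 1.44 and 1.39 (adjusted p = 1.47e-05 and 1.74e-05). Trex1, the nuclease that clears DNA from the cytosol, was higher in both groups (0.42 and 0.50), and passed in 3 and 7 of 9 fits that left out 1 array. Adar, the RNA editing enzyme gene, was lower in chronic Th2 cells (-0.46, adjusted p = 0.0488) and passed in 1 of those fits. Socs3 and Socs1, feedback inhibitors of JAK signalling, rose by 1.11 and 0.53 in chronic Th2 cells (adjusted p = 0.0348 and 0.0357), and passed in 1 and 2 of 9 fits that left out 1 array.

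Of 59 other measured interferon-induced genes, 3 were called higher and 2 lower in acute Th2 cells, and 4 higher and 4 lower in chronic Th2 cells. Of all genes, 3.67% were called higher and 2.2% lower in acute Th2 cells, and 3.68% and 4.2% in chronic Th2 cells. Ifitm3, which blocks entry of viruses at membranes, had levels of 5.25, 5.67 and 5.51 in naive, 10.75, 10.41 and 9.83 in acute Th2 and 9.41, 8.98 and 9.34 in chronic Th2 cells. It rose by 4.86 and 3.77 (adjusted p = 5.26e-06 and 2.5e-05), from naive levels under background. Its relative Ifitm2 rose by 2.32 and 2.05. Gbp5, another guanylate-binding protein gene, had levels of 6.90, 7.39 and 6.99 in naive, 8.33, 9.14 and 8.71 in acute Th2 and 8.42, 8.32 and 8.24 in chronic Th2 cells. It rose by 1.63 and 1.23 with no overlap (adjusted p = 0.00197 and 0.00846). The other guanylate-binding protein genes of this list, Gbp4, Gbp7 and Gbp9, were not called against naive cells, with or without naive 1. Means in naive, acute Th2 and chronic Th2 cells were 9.21, 8.89 and 8.90 for Gbp4 and 8.14, 8.69 and 7.97 for Gbp7. For Gbp9 they were 7.40, 6.80 and 6.77. Without naive 1 the naive means of Gbp4, Gbp7 and Gbp9 were 8.74, 7.91 and 6.98. Ms4a4c and Ms4a6b, membrane protein genes, were lower in both groups. In acute Th2 cells Ms4a4c fell by 2.48 and Ms4a6b fell by 2.63. In chronic Th2 cells Nampt was also higher and Ifi203 and Daxx lower, and each of these lost its call when some single arrays were left out. Without naive 1, the counts were 12 higher and 4 lower in acute Th2 cells and 13 higher and 7 lower in chronic Th2 cells, among them Tap1 and Psmb8 of antigen presentation as higher in both. All genes then gave 6.05% higher and 6.11% lower, and 5.84% higher and 11.4% lower. Between chronic and acute Th2 cells, 0 genes of these lists were called by limma, against 0.0301% of all genes. Of the 59, 3 had an unadjusted p under 0.05, against 14.9% of all genes. Among the 59, the largest differences were -1.09 for Ifitm3 (adjusted p = 0.305) and -0.72 for Gbp7 (adjusted p = 0.322).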

How the data were processed

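The authors deposited 1 log2 intensity per probe set and array, made with RMA per the submitters' processing notes, which also name limma. The sources used here give no versions, annotation or filters. Of 34760 probe sets, 21640 name 1 gene, 1321 several and 11799 none, and each gene was read from its brightest probe set that names it alone. Entrez identifiers of 21553 probe sets matched RefSeq, and 0 symbols differed. No further normalisation or filter was applied.

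The test was that of limma 3.58.1 (R 4.3.3), two-sided, with group as the only term on all 9 arrays. P-values were adjusted by Benjamini-Hochberg over 19937 genes in each of 3 comparisons, with a threshold of 0.05. An exact permutation test of 3 arrays against 3 cannot give a p under 0.1. The fit was run on simulated data, with independent noise and no array that stood apart. That run cannot show how the fit handles an array such as naive 1. The members and the other gene lists were chosen with earlier results of these data known. The members described array by array are those called in any comparison or in a fit without 1 array, the 4 with the largest difference in each comparison, and the brightest of each role. Other genes named are called list members, ligands, factors or markers, with a few (Ifnb1, Ifna2, Ifna5, Ifnl2, Siglech, Cox6a2, Tap1, Psmb8) chosen after their values were seen. The number of arrays limits the precision. Some items are not reported here.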

Additional observations from a re-analysis of the deposited data

How the results depend on the processing

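Limits were the 3 arrays per group, the array naive 1, and members near background. Under all alternatives, the median differences of the members ranged from -0.30 to -0.06 (acute Th2 minus naive) and from -0.40 to 0.04 (chronic Th2 minus naive). Between chronic and acute Th2 cells they ranged from -0.03 to 0.05. Each move was less than the spread of array medians within the compared groups. In the naive group naive 1 itself makes most of that spread, so that it cannot show whether the medians hold without that array. Leaving out naive 1 took them from -0.17 to -0.06 (acute Th2 minus naive) and from -0.15 to 0.03 (chronic Th2 minus naive). The causes of the changes below were not tested.

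Leaving out 1 array at a time gave 1 member called higher and 0 to 3 lower in acute Th2 against naive cells, with 653 to 2424 genes called against 1171. In chronic Th2 against naive cells it gave 0 to 1 higher and 0 to 2 lower, with 734 to 3438 genes against 1571. Between both Th2 groups it gave 0 members and 0 to 12 genes against 6. Array weights gave 3 higher and 4 lower members (4019 genes), 1 higher and 2 lower members (4675 genes) and 3 higher and 3 lower members (6721 genes) in these comparisons. The weight was 8.23 for acute Th2 3, against 0.47 and 1.29 for acute Th2 1 and 2, and 0.17 for naive 1. The acute Th2 mean of that fit thus rests mainly on 1 array. Without both naive 1 and chronic Th2 3 there were 1 higher and 3 lower members (2624 genes), 1 higher and 2 lower (4665 genes) and 1 higher and 2 lower (1087 genes). Fits on only the 6 arrays compared called 762, 686 and 2 genes, and 0 members in chronic Th2 against naive cells, higher or lower. Quantile normalisation and a trended, robust prior each called 0 members lower there, and the latter 3 genes between both Th2 groups. Between those groups, quantile normalisation called 4 genes higher and 1 lower, and median centring 1 and 4. With a replicate block, Ifit2 (-0.91) was the 1 member lower in acute Th2 cells, 2 were lower in chronic Th2 cells, and 0 genes were called between both Th2 groups. Deviations of same-numbered arrays correlated between -0.09 and 0.57, over 0.1 in 6 of 9 pairs, and not every array correlated best with its own number, so that the numbers were not taken as pairs. Parp14 changed sign in acute Th2 against naive cells, from -0.02 to 0.56 with array weights, 0.37 without naive 1 or without both naive 1 and chronic Th2 3, and 0.18 without acute Th2 1 (-0.29 to 0.37 when 1 array was left out).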
